A study of Mus musculus with 1920 samples.

Results

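The 9 genes described here encode actin and proteins that bind it. They are Actb and Actg1, the cytoplasmic beta and gamma actins, Tmsb4x and Tmsb10, the thymosins that hold actin monomers, Pfn1 and Cfl1, which encode profilin and cofilin, Coro1a, which encodes a coronin of blood-derived cells, and Arpc1b and Arpc2, which encode subunits of the Arp2/3 complex. Each was found in the count table by its mouse Ensembl identifier, and 9 of 9 symbols matched 1 of the 48709 gene entries. The genes were chosen by name with earlier results of these data in view, among them the higher level of Tmsb4x 3 days after axotomy. That difference is given below as a description. The remaining tests on the 9 genes describe these mice and are not independent support for the choice.

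The animals were CD1 mice, 16 weeks old. Microglia, the macrophages that live in brain and spinal cord, were sorted singly into wells for Smart-seq2, a method that covers transcripts along their length and carries no molecular identifiers. Untreated tissue was spinal cord, cerebellum, cortex, hippocampus, corpus callosum and facial nucleus, which according to the series' design text came from the same animals. Injured mice gave cells of the facial nucleus 3 or 14 days after axotomy, a cut of the facial nerve, whose tissue label reads facial nerve and source label facial nucleus. Others gave cells of corpus callosum during cuprizone demyelination, a loss of myelin caused by feeding a copper chelator, or during the remyelination stage that follows. The labels number 4 replicates in each of the 10 groups, while the design text gives 3 to 4 animals for a condition. Each replicate is called a mouse below, though the labels do not state that it is a separate animal. Each plate of wells held 2 groups. The untreated groups were paired as cortex with hippocampus, cerebellum with facial nucleus, and corpus callosum with spinal cord. Both axotomy groups shared a plate and so did both cuprizone groups, so plate and injury cannot be told apart wherever an injury is compared with untreated tissue.

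Actin monomers assemble into filaments that push the cell membrane outward, and microglia use such filaments to extend processes, migrate and engulf debris. Thymosins keep a reserve of monomers, profilin hands monomers to growing filament ends, and cofilin cuts and disassembles old filaments. The Arp2/3 complex starts new branches on existing filaments, and coronin 1A binds filaments and the Arp2/3 complex in leukocytes.

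The filters kept 1644 of 1900 wells labelled as cells and 0 of 20 negative wells. The reads of each mouse's cells in a group were added up, which gave 40 sums of 5298853 to 19964472 reads. Remyelination kept 67.9% of its wells and other groups 81.1% to 95.3%. Its cells also had the fewest genes (median 1517), against 2137 in demyelination and 2328 to 2958.5 elsewhere. The summed level of 12 microglia markers, such as P2ry12 and Tmem119, was 48234 to 53038 scaled CPM (reads of a gene relative to library size, with sizes scaled by TMM over the 40 sums) in untreated corpus callosum. It was 31598 to 43974 in demyelination and 28774 to 39106 in remyelination, with 0 of the 12 at zero counts in any group. Cells were marked as other types when at least 2 markers, pooled over monocytes, border macrophages, neutrophils and lymphocytes, each reached 50 CPM. They made up 17.7% (cerebellum) to 42.2% (demyelination) of kept cells. In untreated corpus callosum 7 of the 8 neutrophil markers were under 10 CPM, while the list summed to 548 to 818. A marked cell therefore need not be of another type.

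Levels per kilobase of exon differed widely among the 9 genes. Over the 40 sums, the mean level per kilobase was 5042 scaled CPM for Tmsb4x and 2614 for Actb. It was 348 for Arpc2, 285 for Pfn1, 254 for Coro1a, 201 for Cfl1 and 75.8 for Arpc1b. Tmsb10 stood at 10.7 and Actg1 at 0.634, so the 2 abundant genes of each pair, Actb and Tmsb4x, had partners read at a small part of their level. Together the 9 genes took 0.965% ± 0.03995 (SD, n = 4) of all gene reads in cerebellum, 1.22% ± 0.109 in cortex, 1.32% ± 0.245 in corpus callosum and 1.13% ± 0.0617 in facial nucleus. Their share was 1.905% ± 0.178 at day 3 after axotomy, 1.32% ± 0.175 at day 14, 2.81% ± 0.116 in demyelination and 2.25% ± 0.204 in remyelination. These shares use no scaling between libraries. In corpus callosum the 4 mice had shares of 1.58, 1.12, 1.49 and 1.11%, and in demyelination 2.87, 2.71, 2.72 and 2.95%, with no overlap.

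**Figure D1:**
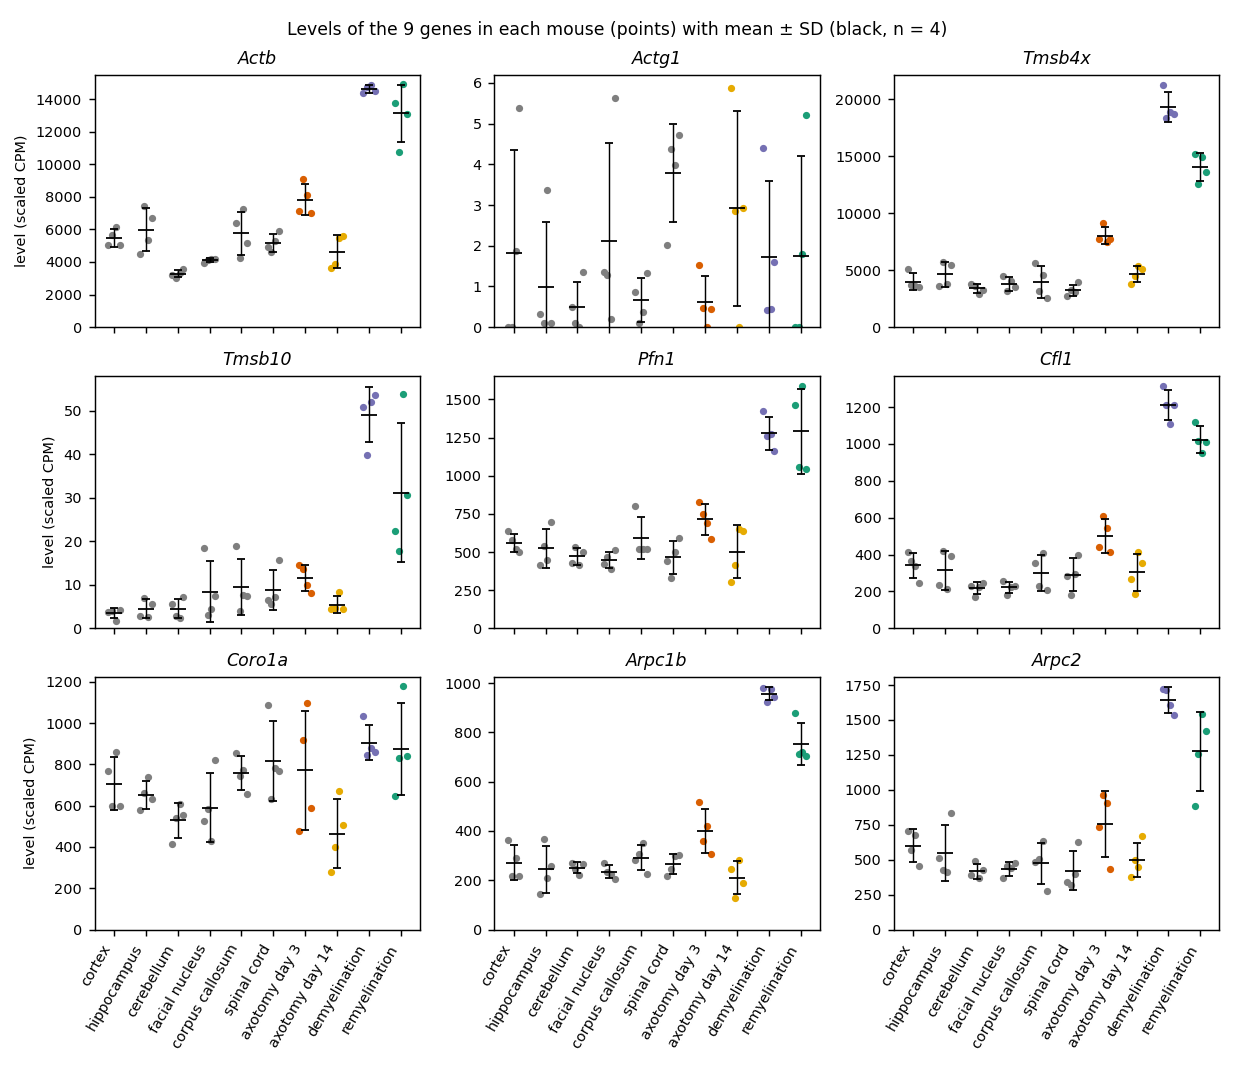
Level of each gene (vertical axis, scaled CPM, own scale per panel starting at 0) in the 10 groups (horizontal axis). Coloured points are the 4 mice of a group and black marks the mean ± SD, with bars that would pass below 0 cut there; the demyelination and remyelination points of Actb, Tmsb4x, Pfn1, Cfl1, Arpc1b and Arpc2 lie above every untreated point, and those of Coro1a do not.

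Both actins are encoded by closely related genes. Actb lies at chr5:142903115-142906754 and Actg1 at chr11:120345690-120348542, both on the minus strand of GRCm38. Their coding sequences are each 1128 bases long and match at 1000 of them (88.7%). The first 90 coding bases are shown because the proteins differ mainly at this end, with capitals at the 16 bases that differ between the genes.
Actb: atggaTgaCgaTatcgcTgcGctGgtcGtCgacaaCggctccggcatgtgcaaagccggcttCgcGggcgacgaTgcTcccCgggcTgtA
Actg1: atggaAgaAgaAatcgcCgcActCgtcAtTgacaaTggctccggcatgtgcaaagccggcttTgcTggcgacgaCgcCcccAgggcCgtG
Over the 40 sums Actb had 3060673 reads and Actg1 739. Actg1 had 0 reads in 7 of the 40 sums, where 3 reads, the limit taken for a count of 0, would be at most 0.386 CPM. Its highest group mean was 3.78 ± 1.21 scaled CPM in spinal cord, from mice at 2.03, 4.38, 3.98 and 4.73. Of the 1903 words of 50 bases in the Actg1 transcript, 1079 (56.7%) also occur in transcripts of other genes, 973 of them in the processed pseudogene Gm12715. In Actb 266 of 1871 words (14.2%) are shared. How reads that match several genes were counted is not given in the sources used here, so the Actg1 level is uncertain.

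The thymosins differ more. Tmsb4x lies at chrX:167207093-167209315 and Tmsb10 at chr6:72957347-72958748, again on the minus strand. The whole Tmsb10 coding sequence (135 bases) is set beside bases 19 to 153 of the annotated Tmsb4x coding sequence because it is the only closely related partner among the 9 genes, with capitals at the 40 differing bases and 95 matching ones (70.4%).
Tmsb4x: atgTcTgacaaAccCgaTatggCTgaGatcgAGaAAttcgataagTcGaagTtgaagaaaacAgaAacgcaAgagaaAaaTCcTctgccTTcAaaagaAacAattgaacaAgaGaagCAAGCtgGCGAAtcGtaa
Tmsb10: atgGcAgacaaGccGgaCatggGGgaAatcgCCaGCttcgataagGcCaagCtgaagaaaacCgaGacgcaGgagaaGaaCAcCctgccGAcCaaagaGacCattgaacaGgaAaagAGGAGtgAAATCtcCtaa
Tmsb4x had 3024311 reads and Tmsb10 6112. None of the 815 words of 50 bases in Tmsb4x occurs in another gene's transcript, whereas 279 of 641 (43.5%) do in Tmsb10, 213 of them in Gm9844. Tmsb10 was nevertheless read in all 40 sums, at 23 to 706 reads each.

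Of the other 5 genes, Pfn1 is at chr11:70651850-70654644, Cfl1 at chr19:5490455-5495201, Coro1a at chr7:126699773-126707787, Arpc1b at chr5:145114215-145130705 and Arpc2 at chr1:74236084-74268209. Arpc1b shares 931 of its 5115 exonic bases (18.2%) with Pdap1 on the opposite strand. Smart-seq2 does not mark strand, so reads there could belong to either gene, and the Arpc1b level carries that uncertainty. Cfl1 shares 23.0% of its 50-base words with other genes, Arpc2 0.216%, and Pfn1 and Coro1a none.

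A promoter window of 250 bases before to 50 bases after the start site was found in RefSeq (GRCm38.p6) for 8 of the 9 genes, all but Actb, in 11 windows, of which Tmsb10 has 3 and Coro1a 2. The GC box GGGCGG, searched on both strands, occurs in 11 of the 11 windows, against 35.7% of all 32851 windows of the same length. The CArG box, the motif known to bind serum response factor at actin genes, occurs in 1 of the 11, against 1.63% of all windows. That window belongs to Actg1, and 70 bases of it are shown with the CArG box in capitals, 90 bases before the start site, at chr11:120348546-120348615 on the minus strand.
Actg1: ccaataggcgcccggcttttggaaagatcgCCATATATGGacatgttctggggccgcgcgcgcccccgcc
A match of letters is a description only. Of Srf and its cofactors, a list of 6 genes, 0 of 6 passed in edgeR at day 3, in demyelination or in remyelination (DESeq2 called Mrtfb at day 3), where 0.14%, 3.08% and 2.51% of all genes passed as higher. The list had medians of -0.31, -0.22 and -1.17 on the log2 scale, against 0.04, -0.33 and -0.31 over all genes.

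Across the 6 untreated regions, Actb was the only one of the 9 genes to pass the test for a difference. Cerebellum had the lowest Actb level, with mice at 3218, 3048, 3311 and 3567 scaled CPM, and facial nucleus the next, at 3938, 4095, 4213 and 4174. Every mouse of those 2 groups lay below every mouse of cortex (5021, 5653, 6171 and 5039), hippocampus (4494, 7446, 5329 and 6691), corpus callosum (6368, 4269.9, 7269.9 and 5140.4) and spinal cord (4946, 4609, 5301 and 5900.5). In order of means, Actb stood at 3286 ± 216 in cerebellum, 4105 ± 122 in facial nucleus, 5189 ± 552 in spinal cord, 5471 ± 551 in cortex, 5762 ± 1323 in corpus callosum and 5990.2 ± 1327 in hippocampus (SD, n = 4). The mice of the last 4 regions overlapped one another. Cerebellum and facial nucleus were the 2 groups of 1 plate and the other 4 regions were on other plates, so plate and region cannot be told apart in this order.

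In edgeR's quasi-likelihood F test over the 6 regions, Actb had an adjusted p of 0.00804 (Benjamini-Hochberg over all genes), and 0.1% of all genes tested passed (23 of 22907). The test took the sums as independent, although by the design text the regions came from the same animals. None of the other 8 genes passed. Their adjusted p values were from 0.47 to 1. Within the plate of cerebellum and facial nucleus, the Actb difference was -0.33 ± 0.14 on the log2 scale (standard error). It did not pass in edgeR (adjusted p = 0.422), where 0.00437% of all genes did, although the mice of the groups did not overlap. No member passed between cortex and hippocampus or between spinal cord and corpus callosum, where 0% of all genes passed in edgeR, 2353 and 1504 genes had an unadjusted p under 0.05, and DESeq2 called 767 and 372. Cfl1 was also lowest in cerebellum and facial nucleus, at 219 ± 33.4 and 222 ± 31.7, but its mice overlapped those of other regions. Tmsb4x spanned only 3245 ± 499 (spinal cord) to 4632 ± 1098 (hippocampus).

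At day 3 after facial axotomy, the abundant monomer-binding gene and the abundant actin were both higher than in untreated facial nucleus. Tmsb4x was at 4462, 3135, 4021 and 3528 scaled CPM in the 4 untreated mice and at 7726, 9149, 7488 and 7709 at day 3. Actb was at 3938, 4095, 4213 and 4174 and 7120, 9094, 8085 and 7009. For both genes the groups did not overlap.

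Tmsb4x differed by 1.09 ± 0.15 on the log2 scale, given as a description because this difference was known when the genes were chosen. Actb rose by 0.94 ± 0.16 (edgeR adjusted p = 0.0104). Of the 8 genes other than Tmsb4x, Actb alone passed as higher, where 0.14% of all genes tested (27 of 19319) did. Among the others, Cfl1 differed by 1.19 ± 0.28 (edgeR adjusted p = 0.162), with untreated mice at 256, 179.8, 224 and 229.8 and day 3 mice at 443, 610.0, 545 and 412, which do not overlap. Its fold was as large as that of Tmsb4x and its error larger.

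The differences of Arpc2 (0.82 ± 0.26), Arpc1b (0.79 ± 0.29), Pfn1 (0.68 ± 0.26) and Coro1a (0.40 ± 0.31) did not pass. Coro1a ranged from 477 to 1098 scaled CPM over the day 3 mice, which overlapped the untreated range of 427 to 821. Actg1 and Tmsb10, at 24 and 456 reads in day 3 cells, were too few for their direction to be read. The Actb call rested on single mice: without untreated mouse 1 its edgeR adjusted p was 0.0605 and without day 3 mouse 2 it was 0.0648. Mitochondrial reads had a median of 3.09% in day 3 cells and 1.06% in facial nucleus, and a list of 20 cell cycle genes summed to 1077 to 2152 scaled CPM against 131 to 534. Their part in the result was not tested.

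At day 14 the levels stood nearer those of untreated facial nucleus. Actb was at 3629.6, 3888, 5454 and 5595 scaled CPM and Tmsb4x at 3761, 4463, 5370.5 and 5099, and for both genes every day 14 mouse lay below every day 3 mouse. Against untreated facial nucleus, Actb differed by 0.18 ± 0.16 and Tmsb4x by 0.31 ± 0.15 on the log2 scale, and 0 of 9 genes passed in edgeR, as did 0% of all genes tested (1090 had an unadjusted p under 0.05, and DESeq2 called 181). Between days 14 and 3, which shared a plate, Tmsb4x differed by -0.78 ± 0.15 (edgeR adjusted p = 0.0745) and Actb by -0.76 ± 0.16 (edgeR adjusted p = 0.0988). Thus 0 of 9 passed, where 0.0259% of all genes did (5 of 19319). Both passed in DESeq2, without the filter on low counts, and in a fit of all 10 groups. The higher Tmsb4x level at day 3 was known when the genes were chosen, so its difference here is a description.

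In cuprizone demyelination 6 of the 9 genes rose against untreated corpus callosum. Tmsb4x stood at 5631, 3210.3, 4610.4 and 2519 scaled CPM in the untreated mice and 21234, 18338, 18910 and 18748 in demyelination. Actb stood at 6368, 4269.9, 7269.9 and 5140.4 and 14370, 14746, 14849 and 14487. In both the lowest demyelination mouse was well above the highest untreated mouse.

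The turnover genes stood higher as well. Cfl1 was at 356, 231, 408 and 207 in untreated mice and 1313, 1212, 1108 and 1212 in demyelination. Pfn1 was at 801, 522, 521 and 523 and 1422, 1261, 1273 and 1162. The 2 groups did not overlap in either gene, though untreated mouse 1 stood apart in Pfn1.

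The Arp2/3 subunits stood higher in demyelination too. Arpc1b was at 283, 307, 351 and 226 in untreated mice and 979, 924, 977 and 943 in demyelination. Arpc2 was at 481, 502, 633 and 275 and 1724, 1712, 1609 and 1532. Again no mouse of one group reached the other.

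On the log2 scale Tmsb4x rose by 2.25 ± 0.19 (adjusted p = 1.74e-06), Cfl1 by 1.99 ± 0.23 (4.74e-05), Arpc2 by 1.77 ± 0.24 (0.000206), Arpc1b by 1.68 ± 0.21 (0.00011), Actb by 1.31 ± 0.15 (2.70e-05) and Pfn1 by 1.08 ± 0.22 (0.00716), all in edgeR. The 6 of 9 stand beside 3.08% of all genes tested that rose (433 of 14057). The median difference of the 9 genes was 1.68, and that of all genes tested was -0.33. Pfn1 no longer passed when cells with markers of other types were left out (1.08, edgeR adjusted p = 0.0728).

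Coro1a did not pass in demyelination. It was at 853, 744, 773 and 656 in untreated mice and 1032, 847, 879 and 860.4 in demyelination, and the groups overlapped. Its difference was 0.23 ± 0.20 (edgeR adjusted p = 0.621), and RLE size factors, those of DESeq2, turned its sign (-0.02). Tmsb10 was at 18.95, 3.97, 7.67 and 7.55 against 50.9, 39.8, 52.1 and 53.6, groups that did not overlap, with a difference of 2.33 ± 0.93 that did not pass in edgeR (adjusted p = 0.146) and did in DESeq2 (2.10, adjusted p = 0.00416). Actg1 had 28 and 81 reads and no direction that could be read.

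In remyelination the same 6 genes were higher than in untreated corpus callosum. Tmsb4x was at 15231, 12558, 14930 and 13642 scaled CPM, Actb at 13767, 10775, 14912 and 13069 and Cfl1 at 1121, 1017, 949 and 1009. Arpc1b was at 879, 712, 719 and 703, Arpc2 at 884, 1253, 1541 and 1419.9 and Pfn1 at 1467, 1059, 1591 and 1048. Every remyelination mouse was above every untreated mouse in all 6.

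Tmsb4x rose by 1.82 ± 0.19 (edgeR adjusted p = 1.57e-05) and Actb by 1.19 ± 0.14 (edgeR adjusted p = 9.56e-05), the 2 most abundant members. Cfl1 rose by 1.77, Arpc2 by 1.42, Arpc1b by 1.37 and Pfn1 by 1.12, with edgeR adjusted p from 0.000164 to 0.00636. Thus 6 of 9 passed as higher, where 2.51% of all genes did (353 of 14057). Coro1a, at 649, 829.6, 1179 and 839, differed by 0.20 ± 0.20 and did not pass. Without cells marked as other types Pfn1 again did not pass (edgeR adjusted p = 0.0802). Between remyelination and demyelination, on 1 plate, the Tmsb4x mice did not overlap, yet 0 of 9 genes passed in edgeR and 0.0427% of all genes did (Tmsb4x -0.43 ± 0.18, adjusted p = 0.305).

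**Figure D2:**
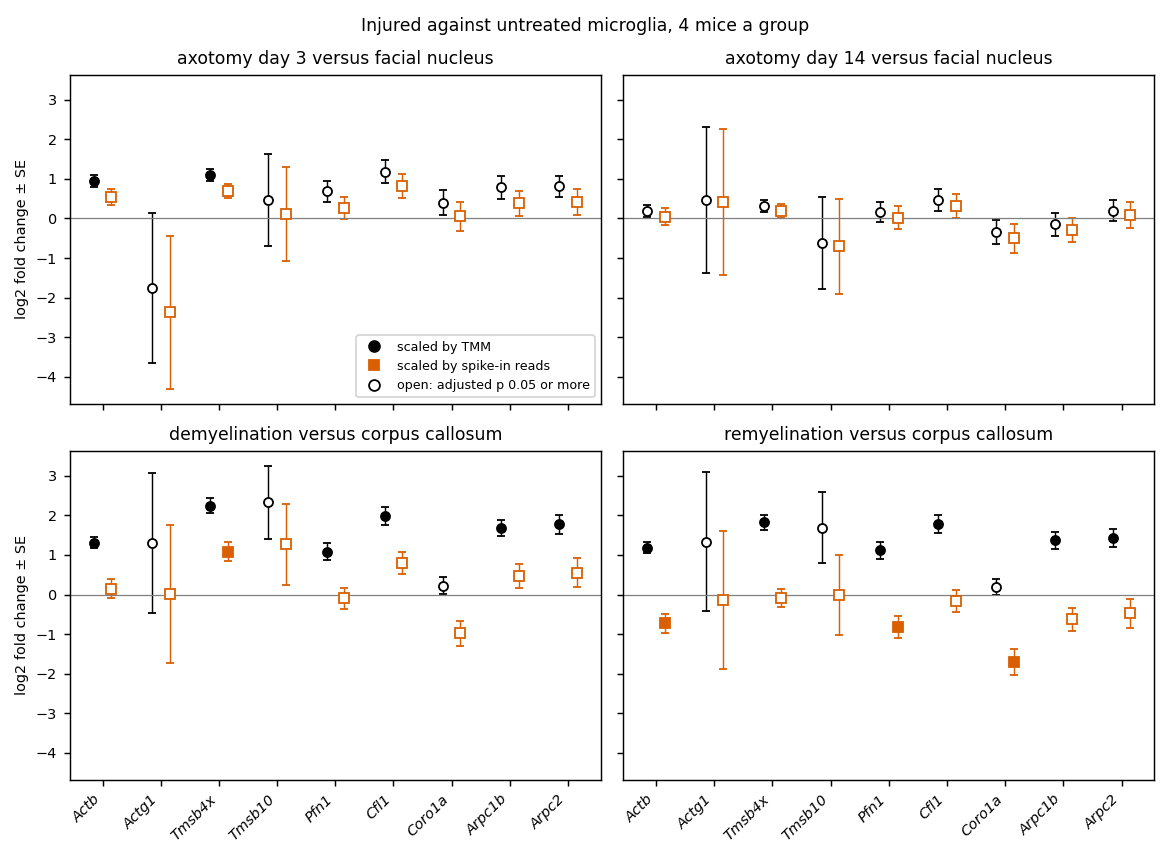
Difference of each gene (vertical axis, log2 fold change ± standard error) between an injured group and its untreated region, 4 mice a group, under TMM scaling (black circles) and under scaling by spike-in reads (orange squares); filled symbols passed in edgeR at an adjusted p of 0.05. Under TMM scaling 6 genes are filled in both cuprizone panels, while under spike-in scaling only Tmsb4x is filled in demyelination, and Actb, Pfn1 and Coro1a are filled below 0 in remyelination.

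These directions depend on what the levels are scaled to. Spike-in reads come from a fixed amount of added RNA, and the sums held 8.899 ± 1.599 gene reads per spike-in read in untreated corpus callosum, 5.901 ± 1.15 in demyelination and 3.58 ± 0.894 in remyelination. With libraries scaled to spike-in reads, the median of all genes moved to -1.55 in demyelination and -2.24 in remyelination. Over all genes in demyelination, 433 rose and 292 fell under TMM, against 90 and 1047 under spike-in scaling. In remyelination the counts were 353 and 85 against 57 and 2800, and at day 3 after axotomy 27 and 1 against 5 and 1. Tmsb4x then still rose in demyelination (1.08, edgeR adjusted p = 0.0171), and the other 8 genes did not pass, with Actb at 0.14, Pfn1 at -0.10 and Coro1a at -0.98. In remyelination 3 genes fell under this scaling, Coro1a (-1.70), Pfn1 (-0.82) and Actb (-0.73), with edgeR adjusted p of 0.0045, 0.0462 and 0.0446. Tmsb4x stood at -0.09 there. At day 3 after axotomy the median of all genes was -0.38, and Tmsb4x (0.69) and Actb (0.54) no longer passed.

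Relative to the median of all genes, the 2 scalings gave nearly the same values. This was fixed in advance, because a change of library sizes shifts all genes by nearly the same amount. The likeness is therefore no test of the scaling. In demyelination Tmsb4x stood 2.58 above that median under TMM and 2.63 above it under spike-in scaling, Actb 1.65 and 1.69, and Coro1a 0.56 and 0.57. Per 1000 spike-in reads, Tmsb4x had 37.6 ± 8.52 reads in untreated corpus callosum, 79.5 ± 11.4 in demyelination and 35.2 ± 10.2 in remyelination. Actb had 54.96 ± 9.21, 60.7 ± 11.9 and 33.1 ± 11.4. Thus Tmsb4x in demyelination (68.4 to 95.01 over mice) stood above the untreated range of 24.9 to 43.3 on this measure, and Actb did not.

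Ratios between genes of the same mouse do not depend on scaling, and several of them differed between the cuprizone groups and untreated corpus callosum. Tmsb4x reads per Actb read were 0.6901 ± 0.168 in untreated corpus callosum, 1.32 ± 0.106 in demyelination and 1.08 ± 0.0719 in remyelination, with all 8 cuprizone mice above the 4 untreated ones. Coro1a reads per Actb read were 0.136 ± 0.0284 in untreated mice, from 0.106 to 0.174, and 0.06197 ± 0.00663 in demyelination, from 0.0575 to 0.0718. Against Arpc2, a subunit of the complex that coronin binds, Coro1a went from 1.71 ± 0.498 to 0.5504 ± 0.04297 and 0.688 ± 0.0777 in remyelination, without overlap.

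Ratios among the monomer and turnover genes stood apart as well. Cfl1 reads per Actb read were 0.0516 ± 0.00758 in untreated corpus callosum and 0.08297 ± 0.00686 in demyelination, ranges that do not overlap. Pfn1 reads per Cfl1 read were 2.08 ± 0.548 and 1.06 ± 0.0794, again without overlap. By contrast Arpc1b per Arpc2, both subunits of Arp2/3, was 0.644 ± 0.1205 and 0.583 ± 0.0354, and the mice overlapped. At day 3 after axotomy Tmsb4x per Actb was 1.03 ± 0.0802 against 0.925 ± 0.159 in facial nucleus, with overlap. These ratios were picked after the levels were seen and carry no test.

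**Figure D3:**
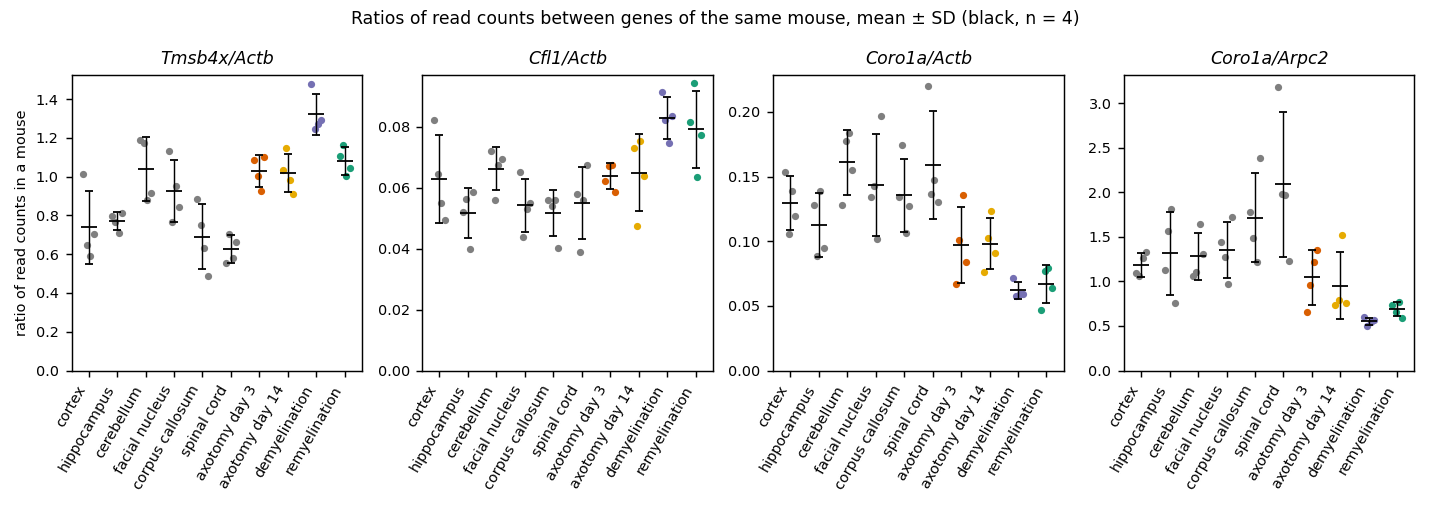
Ratio of read counts of 2 genes in each mouse (vertical axis, starting at 0) by group (horizontal axis), with mean ± SD over 4 mice in black. Tmsb4x per Actb is highest in demyelination, Cfl1 per Actb is higher in the cuprizone mice than in untreated corpus callosum, and both Coro1a ratios are lowest in the cuprizone groups.

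Some summed markers of other cells stood higher in the cuprizone groups, mostly through few genes of a list. The 10 monocyte markers summed to 17.5 to 175 scaled CPM in untreated corpus callosum and 564 to 2118 in demyelination, where 9 of the 10 were under 10 CPM and Ly6c2, Chil3 and Hp were at 0. In remyelination that sum was 15.6 to 331, which overlapped the untreated range. The 8 border macrophage markers summed to 186 to 392 in remyelination against 4.500 to 15.2. Of these 8, 6 were under 10 CPM in remyelination, with Cd163 and Lyve1 at 0. The 8 oligodendrocyte markers summed to 107 to 1726 in remyelination against 100.2 to 402, with overlap. The cell cycle list summed to 807 to 1456 in demyelination against 172 to 627.

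Leaving out every cell with markers of other types kept Tmsb4x, Actb, Cfl1, Arpc1b and Arpc2 past the threshold in both cuprizone groups. In demyelination, the 68 marked cells had 11921 ± 2263 Tmsb4x reads in CPM and the 93 other cells 13635 ± 1526, in cells drawn to an equal depth. For Actb the values were 9557 ± 1459 and 10004 ± 781. In untreated corpus callosum they were 3379 ± 608 and 3966 ± 1111 for Tmsb4x, so both kinds of cell had a higher mean in demyelination than either had in untreated tissue. In remyelination the 33 marked cells had 5894 ± 2558 for Tmsb4x and 6743 ± 3522 for Actb, with the lowest mouse at 3179 and 2907, and the 96 other cells 10758 ± 373 and 9462 ± 1083. The marked cells of remyelination thus overlapped the untreated values in both genes.

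The demyelination and day 3 differences were compared in 1 fit of all 10 groups. Tmsb4x differed more in demyelination than at day 3, by 1.19 ± 0.23 (edgeR adjusted p = 0.00475). This comparison reuses the day 3 difference known when the genes were chosen, so it is given as a description. Tmsb4x was the only 1 of the 9 genes to pass, where 0.157% of all genes (42 of 26684) passed as higher. The median of all genes in this comparison was -1.44 under TMM and -2.17 under spike-in scaling. Over all genes 42 were higher and 71 lower under TMM, against 39 and 125 under RLE size factors and 21 and 902 under spike-in scaling. Actb had a difference of 0.41 ± 0.20, Cfl1 0.83 ± 0.37 and Arpc2 0.99 ± 0.36. The Tmsb4x call was lost without the cells marked as other types (1.09, edgeR adjusted p = 0.0571) and under spike-in scaling (0.39, edgeR adjusted p = 0.330).

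Within cells, Actb and Tmsb4x were read in nearly every microglial cell of every group. After each cell was drawn down to 20000 reads, both were read in at least 98.8% of the cells of a mouse on average. Of the 20 negative wells, with a median of 524.5 gene reads against 247400 in kept cells, 17 had an Actb read and 15 a Tmsb4x read, at medians of 2.5 and 3 reads. Pfn1 was read in 9 negative wells, Coro1a in 6, Cfl1 in 5, Arpc2 in 4 and Arpc1b in 2. Actg1 and Tmsb10 were read in 0 of 20, which allows a share of up to 15%.

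As a share of a cell's reads, the median cell had more Actb and Tmsb4x in both cuprizone groups and at day 3 than in the matching untreated region. Of 20000 reads, the median cell had 63 Tmsb4x reads in corpus callosum, 231 in demyelination and 151 in remyelination. For Actb these medians were 111, 185 and 150. At day 3 the medians were 100.5 for Tmsb4x and 117 for Actb, against 66 and 84 in facial nucleus. At day 14 they were 83 and 85, so the Actb median was close to the untreated one. Such shares do not give amounts of RNA per cell. With sums scaled to spike-in reads, Tmsb4x and Actb differed on the log2 scale by 1.08 and 0.14 in demyelination. The values were -0.09 and -0.73 in remyelination and 0.69 and 0.54 at day 3.

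Shares of cells above the 90th percentile of untreated cells were counted next. In demyelination 78.3% ± 1.74 of the cells of a mouse (SD, n = 4) lay above the 90th percentile of untreated corpus callosum in Tmsb4x, against 10.1% ± 7.56 of the untreated cells themselves. The share was 47.1% ± 5.09 for Cfl1, 46.2% ± 6.899 for Actb, 34.5% ± 4.51 for Arpc2, 31.2% ± 5.03 for Arpc1b, 23.03% ± 4.301 for Pfn1 and 6.18% ± 2.93 for Coro1a. In remyelination it was 57.5% ± 6.25 for Tmsb4x and 33.9% ± 6.19 for Actb. At day 3, 41.3% ± 8.904 of cells lay above the 90th percentile of facial nucleus in Actb and 36.2% ± 4.97 in Tmsb4x, so the median day 3 cell stayed below that percentile in both genes.

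Coro1a was read in fewer cells in the cuprizone groups than in untreated corpus callosum. At 20000 reads per cell its share of cells with a read was 81.7% ± 5.71 in corpus callosum, 69.5% ± 4.72 in demyelination and 55.9% ± 12.1 in remyelination. Without drawing to an equal depth the shares were 93.1%, 83.3% and 67.7%. Its median went from 13 reads to 7 and 6, while its 90th percentile stayed at 36, 32 and 36 reads. Arpc1b went the other way in demyelination, with shares of 69.1% and 87.7% (76.8% and 95.2% at full depth). The Coro1a share was also low in untreated cerebellum (65.5% ± 13.9) and at day 14 after axotomy (66.8% ± 9.98). In remyelination, whose cells had the fewest genes, Pfn1 (93.7% to 82.5%) and Arpc2 (75.2% to 65.3%) were read in fewer cells too. The other members were not.

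Tmsb10 was read in 11.1% ± 3.08 of corpus callosum cells and 37.2% ± 3.63 of demyelination cells at 20000 reads (47.4% and 83.5% at full depth). Actg1 was read in at most 3.52% of the cells of any group at that depth, and in at most 9.497% at full depth. These shares were not tested.

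**Figure D4:**
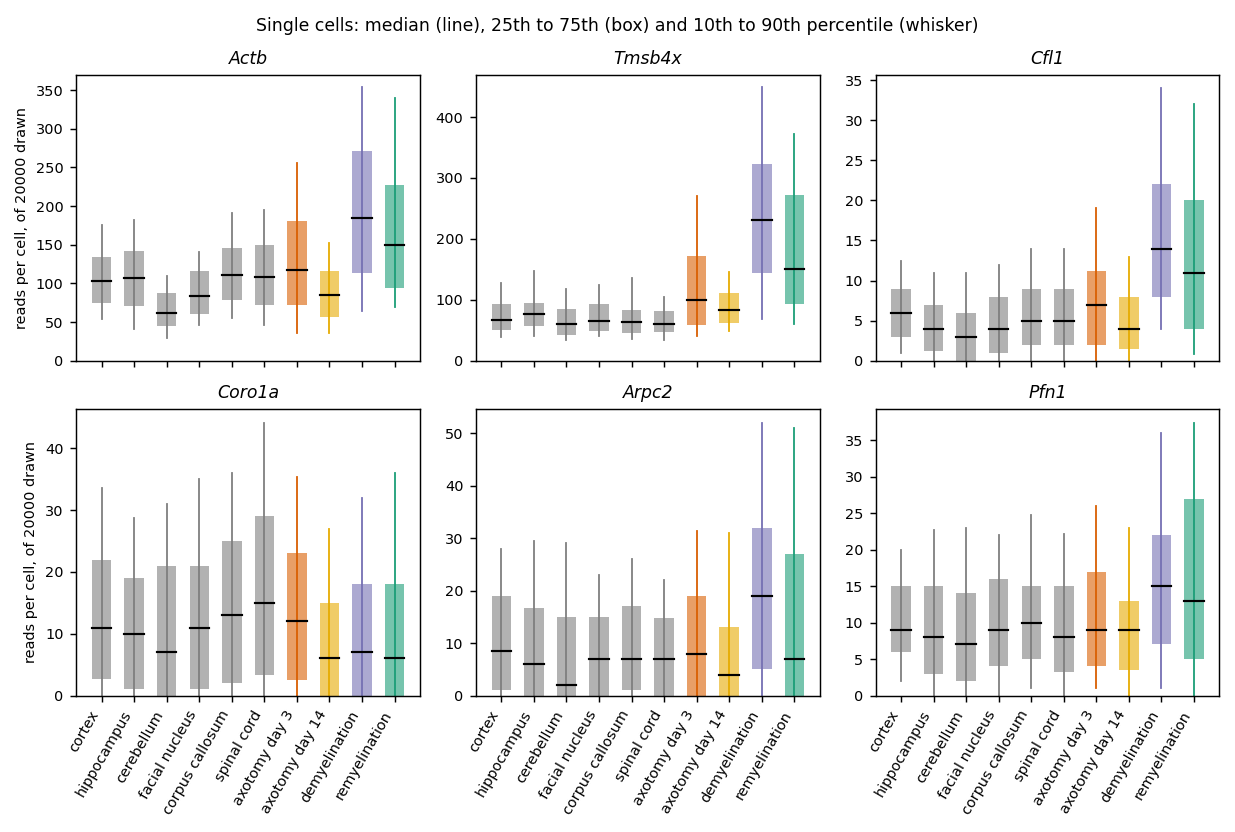
Reads of 6 genes per cell, of 20000 reads drawn from each kept cell (vertical axis), in the 10 groups (horizontal axis); black lines are medians over cells, boxes span the 25th to 75th percentile and whiskers the 10th to 90th. The demyelination box of Tmsb4x lies above the 90th percentile whisker of corpus callosum, and the boxes of Coro1a overlap in all groups.

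From cell to cell the genes ran together more closely in the day 3 and demyelination groups than in untreated regions. Spearman's rank correlation was computed across the 29 to 47 cells of each mouse at 20000 reads, for the 21 pairs of the 7 genes other than Actg1 and Tmsb10, and its median over the 4 mice was taken. The pair Actb and Tmsb4x had the highest rank correlation in demyelination (0.755) and at day 3 (0.734), against 0.220 to 0.755 over the 10 groups. Over the 21 pairs the median rank correlation was 0.0956 (spinal cord) to 0.150 (cortex) in untreated regions. It was 0.320 at day 3, 0.181 at day 14, 0.332 in demyelination and 0.211 in remyelination. Reads per cell differed too. In demyelination against corpus callosum the median cell had 14 against 5 Cfl1 reads and 11 against 4 Arpc1b reads, but 7 against 13 of Coro1a. The part of read number in these correlations was not tested.

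The pair of Tmsb4x and Coro1a stayed near 0. Those medians ran from -0.0727 to 0.106 over the 10 groups, with a median of -0.0400. Single mice lay further from 0, from -0.391 to 0.504 at day 3 and from 0.020 to 0.378 in demyelination. Coro1a had a median of 0.140 with Actb and reached 0.332 with Arpc2 in its highest group. Cfl1 ran with both abundant genes, at medians over groups of 0.356 with Actb and 0.309 with Tmsb4x. Arpc1b and Arpc2, which belong to 1 complex, had a median of 0.0759. Cells of a mouse share a plate and a sort, reads are not molecules, and values drawn from 1 total constrain each other, so these correlations are given without a test.

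**Figure D5:**
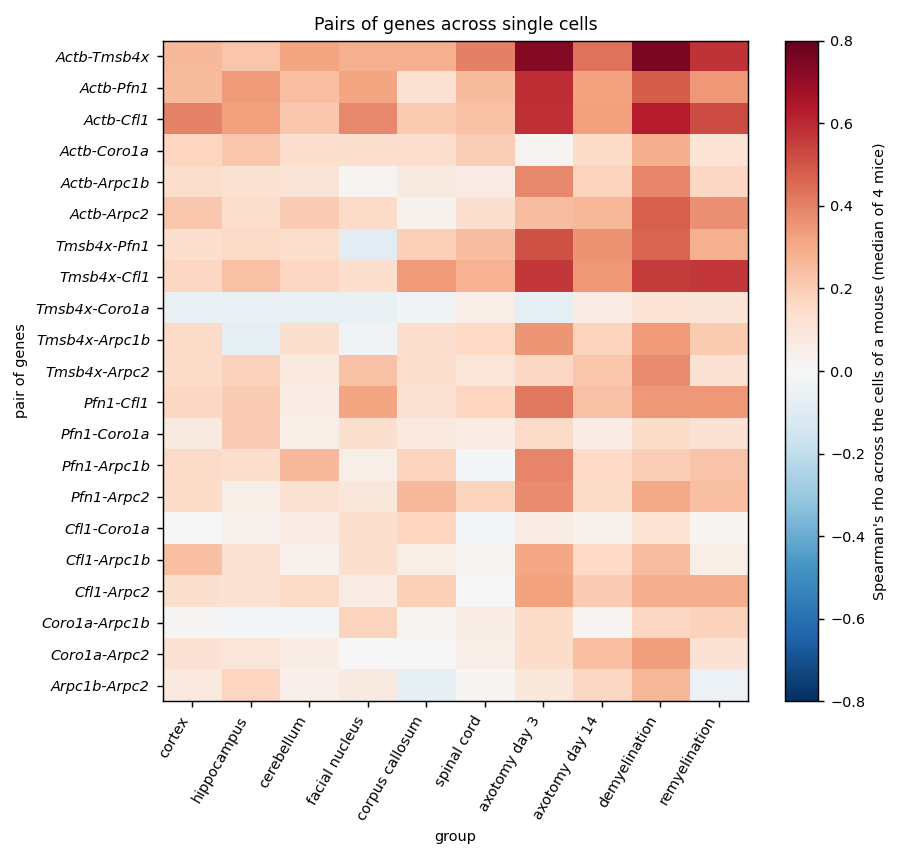
Spearman's rank correlation for each pair of genes (vertical axis) in each group (horizontal axis), as the median over 4 mice of the value across the cells of a mouse at 20000 reads; red is positive and blue negative. The columns of day 3 and demyelination are the darkest, and the median of the pair Tmsb4x and Coro1a stays near 0 in every group.

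Among 143 other genes of the actin cytoskeleton, listed by role, the cuprizone groups again had most of the changes, as they had among all genes. In demyelination 18 of 132 tested rose and 2 fell (median 0.37, against -0.33 over all genes), and in remyelination 17 rose and 0 fell (median 0.13, against -0.31). Over all 14057 genes tested, 3.08% and 2.51% rose, and 292 and 85 genes fell. At day 3 after axotomy 1 of 137 rose, Rac2, a GTPase of blood cells, by 1.48 ± 0.27 (edgeR adjusted p = 0.0260), with a list median of 0.35 against 0.04. Of all genes tested, 0.14% rose there. Rac2 did not pass under spike-in scaling (1.08, edgeR adjusted p = 0.36) or without cells marked as other types, so 0 of the list passed in either. Among untreated regions 1 of 138 differed, Capg, which caps filament ends (edgeR adjusted p = 0.0173), where 0.1% of all genes did.

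Of the 8 other Arp2/3 subunits, 4 rose in both cuprizone groups, where 3.08% and 2.51% of all genes did. Arpc3 went from 145 ± 40.8 scaled CPM in untreated corpus callosum to 557 ± 161 in demyelination, Arpc5 from 161 ± 60.7 to 501 ± 19.4 and Actr2 from 157 ± 45.3 to 350.4 ± 47.5. Actr3b varied from 8.70 to 99.8 over the demyelination mice. Under spike-in scaling 0 of these 8 passed in demyelination, with Arpc3 at 0.73 and Arpc5 at 0.47 on the log2 scale. In remyelination Actr3b then rose and Arpc4 fell, with a list median of -0.63. Without cells marked as other types 0 of the 8 passed in demyelination, and Arpc5 alone passed in remyelination.

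Of the lists in demyelination, 5 of 12 tropomyosins and myosins rose, 3 of 11 capping and severing proteins, 2 of 15 other monomer-binding and turnover proteins, 1 of 19 bundling proteins and 0 of 12 membrane linkers, where 3.08% of all genes did. Cotl1, which encodes a coactosin-like filament binder, went from 343 ± 106 to 1991 ± 369 (2.51 ± 0.25, edgeR adjusted p = 8.19e-06), and Capg from 119 ± 54.9 to 1186 ± 153 (3.27 ± 0.36, edgeR adjusted p = 2.41e-05). Tpm4, a tropomyosin that coats filaments, went from 47.4 ± 9.21 to 338 ± 34.9, and Rac1, a GTPase that signals to Arp2/3, from 279 ± 32.9 to 762 ± 52.5. Aif1, which encodes the microglial actin bundler Iba1, went from 494 ± 139 to 1135 ± 297. The 2 that fell are formins, which start unbranched filaments: Fmnl3 from 263 ± 23.6 to 56.6 ± 14.3 (edgeR adjusted p = 0.0057) and Fmnl1 from 225 ± 40.4 to 51.0 ± 33.1 (edgeR adjusted p = 0.0168). Leaving out cells marked as other types took the list in demyelination to 5 risen and 1 fallen of 128, with Cotl1, Capg, Tpm4, Arhgdia and Gsn risen and Fmnl1 fallen. Under spike-in scaling 3 rose, among them Capg and Cotl1, and 18 fell, with Fmnl3 and Fmnl1 first, and in remyelination 2 rose and 43 fell. Of all 14057 genes, 90 rose and 1047 fell in demyelination under that scaling, and 57 and 2800 in remyelination.

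Actb is often used as a reference gene to which other genes are scaled. Of 14 genes used that way in other assays, 6 rose in demyelination, 5 in remyelination and 1 at day 3, where 3.08%, 2.51% and 0.14% of all genes did. Eef1a1, a translation factor, went from 548 ± 139 scaled CPM in untreated corpus callosum to 2491 ± 154 in demyelination, and B2m, the light chain of MHC class I, from 1874 ± 337 to 6124 ± 294. Eef1a1 also rose at day 3, from 357 ± 66.2 to 880 ± 124. The list had a median of 1.48 in demyelination, against 1.68 for the 9 actin genes. Under spike-in scaling 1 of the 14, Eef1a1, still rose in demyelination (0.99) and none did in remyelination or at day 3.

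The genes whose levels ran most like those of each member over the 40 sums were sought by Pearson's r. The r of log2(CPM + 1) was taken against 3802 genes with a mean of at least 50 CPM. Members were left out of this ranking and are given apart. Actb had an r of 0.953 with both Eef1a1 and Rplp0, a protein of the large ribosomal subunit. Tmsb4x had 0.954 with Rpl32, another ribosomal protein gene, and Cfl1 had 0.956 with Eef1a1. Outside the members, Arpc1b was most like Rps9 (0.928), Pfn1 most like Sdcbp (0.925) and Arpc2 most like Arpc3 (0.890). Arpc2 had a higher r with the members Tmsb4x (0.905) and Cfl1 (0.905) than with Arpc3.

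Coro1a had no such close match, with its highest r at 0.723 for Atp5b. Among the members, Cfl1 had an r of 0.954 with Actb and 0.946 with Tmsb4x, and Coro1a had 0.621 with Actb and 0.427 with Tmsb4x. The sums share plates, depths and group differences, so these values are a description of the 40 sums. Actg1 and Tmsb10 were below the level searched.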

How the data were processed

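The deposited table holds raw read counts per gene and well, made by the authors. Per the submitters' processing notes, the build was GRCm38 and the tools were STAR 2.5.2b and featureCounts 1.5.1. For the annotation release, strand setting and handling of reads with several matches, the answer is not given in the sources used here. Per the labels' protocols, mice were perfused with PBS and cells were purified on Percoll, stained for CD11b, CD45, Ly6C, Ly6G and CD206 and sorted, by gates that the sources used here do not give. Of 48709 gene identifiers, 48349 matched a symbol in GENCODE vM21, and 92 further entries are spike-ins. The 9 genes and all gene lists were chosen with earlier results of these data known.

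Wells were kept with at least 20000 gene counts, 500 detected genes, under 25% mitochondrial and under 50% spike-in reads. Doublets were not called, as wells received single cells. Counts were summed over the cells of a mouse and group, because cells are not replicates. Levels are CPM scaled by TMM over the 40 sums. Sums were tested in edgeR 4.0.16 under R 4.3.3, with filterByExpr (minimum count 10, minimum total 15), TMM and a robust quasi-likelihood F test. P values were adjusted by Benjamini-Hochberg over all genes tested, at a threshold of 0.05. The 6 untreated regions made 1 fit, the axotomy groups and facial nucleus another, and the cuprizone groups and corpus callosum the third. The difference between injuries was fitted over all 10 groups. DESeq2 1.42.0 was an alternative. The scripts were tested on simulated data.

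The labels number the replicates but do not state that each is a separate animal, so p values measure the spread between these samples. Within cells, each kept cell was drawn to 20000 reads without replacement. Every member was named, and other genes were named by the smallest adjusted p within a list (at most 4) or the highest Pearson r (at most 3). Reads carry no molecular identifiers, so counts include amplification error. Coding sequences come from GENCODE vM21 transcripts, and promoter windows from RefSeq on GRCm38.p6.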

Additional observations from a re-analysis of the deposited data

Results flagged for a closer look

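Each member was checked in each group for 1 mouse standing far from the other 3, by the gap to its nearest neighbour over the group's range (Dixon's test at 95%). Of 90 sets of 4 mice, 8 were marked, where chance marks about 1 in 20.

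Tmsb4x stood apart in cortex mouse 1, at 5080 scaled CPM against 3673 in the next mouse, and in day 3 mouse 2, at 9149 against 7726. Pfn1 stood apart in untreated corpus callosum mouse 1, at 801 against 523, which is the group both cuprizone comparisons use. Coro1a stood apart in demyelination mouse 1, at 1032 against 879, and Arpc1b in remyelination mouse 1, at 879 against 719. The scarce genes gave the other 3: Actg1 in hippocampus mouse 3, at 3.37 against 0.332, Tmsb10 in spinal cord mouse 4, at 15.7 against 7.31, and Tmsb10 in day 14 mouse 3, at 8.43 against 4.65.

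The difference of Tmsb4x between its demyelination and day 3 effects, 1.19 on the log2 scale, was the only difference between injuries to pass among the 9 genes. It reuses the day 3 values known when the genes were chosen and is a description. Its causes were not tested.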

How the results depend on the processing

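Under RLE size factors, no cell filter, thinned cells and the replicate block, the number of the 9 genes that passed stayed within 1.5 times of the TMM fit in all 11 comparisons. At day 3 after axotomy 2 passed (Actb and Tmsb4x, the latter known when the genes were chosen), 0 under spike-in scaling, and 1 to 2 with 1 mouse left out; DESeq2 and the fit of all 10 groups added Cfl1. Between days 14 and 3, 0 passed, but 2 did in DESeq2, 2 without the filter on low counts, 2 in the fit of all 10 groups and 0 to 2 with 1 mouse left out (2 without day 14 mouse 4). In demyelination 6 passed as higher and 1 under spike-in scaling. In remyelination 6 passed as higher, and under spike-in scaling 3 passed as lower and 0 as higher. Between the cuprizone stages 1 passed without the low-count filter (Tmsb4x). For the difference between injuries 1 passed, but 0 under spike-in scaling and 0 without cells marked as other types.

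Spike-in scaling, added after the spike-in shares were seen, turned the sign of Pfn1 (-0.10) and Coro1a (-0.98) in demyelination. In remyelination it turned Actb (-0.73), Actg1 (-0.14), Tmsb10 (-0.02), Tmsb4x (-0.093), Pfn1 (-0.82), Cfl1 (-0.17), Coro1a (-1.70), Arpc1b (-0.63) and Arpc2 (-0.47). For the difference between injuries it turned Actb (-0.40), Pfn1 (-0.35) and Cfl1 (-0.01), none of which passed. The cause was not tested. Of 792 fold changes with 1 mouse left out, 29 that had not passed changed sign, as did 16 of 704 under the other alternatives apart from spike-in scaling. Under spike-in scaling 13 of 90 did, and 8 more that passed under TMM or spike-in scaling changed sign too.

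Mice of different groups with the same replicate number had a mean r of 0.0442, 0.0024 and 0.00085 in the 3 fits. For different numbers it was -0.0147, -0.00083 and -0.00032. Among the regions 2 of 60 same-number pairs had an r over 0.1, with the highest at 0.123. The labels do not say that a number marks 1 animal across regions, so the numbers were not taken as pairs. By the design text the untreated regions came from the same animals, so their sums may not be independent. With the replicate block the same number of the 9 genes passed in every comparison: 1 across regions, 2 at day 3, 6 in demyelination, 6 in remyelination, 1 for the difference between injuries and 0 in the other 6. Over all genes the counts moved more. DESeq2 called 200 against 23 across regions, 343 against 28 at day 3, 1945 against 725 in demyelination, 1572 against 438 in remyelination and 3316 against 113 for the difference between injuries. Spike-in scaling gave 6, 1137, 2857 and 923 in the last 4 of these. Without cells marked as other types 212 passed in demyelination and 195 in remyelination, and the fit of all 10 groups gave 1184 and 747. The replicate block gave 39 across regions and 447 in demyelination. Without the low-count filter 57 passed across regions, 92 at day 3, 83 between days 14 and 3 and 114 between the cuprizone stages. Depth limits Actg1 and Tmsb10 most, with 739 and 6112 reads in all.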
